A study of Mus musculus with 12 samples.

Results

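The 9 genes described here handle or sense retinoic acid in the forebrain of newborn mice. They are Crabp1, Crabp2, Stra6, Aldh1a1, Aldh1a2, Aldh1a3, Cyp26b1, Rara and Rarb. They were chosen by name from 19938 mouse genes that had a probe set of their own on the arrays, and each of the 9 had exactly 1 such probe set. RNA was measured on 12 arrays from forebrains collected on postnatal day 0, with 3 biological replicates in each of 4 genotypes. GBS mice had the genotype hGFAP-cre::Ctnnb1(ex3)Fl/+SmoM2Fl/+, and their arrays hold tumor tissue. GS mice were hGFAP-cre::SmoM2Fl/+, GB mice were hGFAP-cre::Ctnnb1(ex3)Fl/+, and Control mice carried both floxed alleles, Ctnnb1(ex3)Fl/+SmoM2Fl/+, without Cre. The hGFAP promoter drives Cre in radial glia, so the alleles are switched on in these precursors and their progeny and not in every cell of the tissue. SmoM2 is a mutant Smoothened that is always active and switches on the sonic hedgehog pathway. Removal of Ctnnb1 exon 3 leaves a stabilised beta-catenin that turns on WNT target genes. Only Control mice lacked Cre, so an effect of Cre itself cannot be told apart from that of the alleles in any comparison with Control.

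Retinoic acid is made from vitamin A. STRA6 takes retinol into the cell, retinol dehydrogenases such as RDH10 turn it into retinaldehyde, and the aldehyde dehydrogenases of the ALDH1A family turn that into retinoic acid. Inside the cell CRABP1 and CRABP2 bind retinoic acid, CRABP2 carrying it to the nucleus and CRABP1 being linked to its storage and breakdown. The receptors RARA and RARB, paired with retinoid X receptors, bind DNA at response elements, and enzymes of the CYP26 family degrade the ligand. In the embryonic mouse forebrain the meninges, through Aldh1a2, and the lateral ganglionic eminence, through Aldh1a3, are known sources of retinoic acid.

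Upstream sequences are shown for Crabp1, the gene whose difference passed the test described below, and for Rarb, whose promoter holds a retinoic acid response element. Each line gives the 250 bases before a transcription start, 5′ to 3′ in the direction of the gene, from RefSeq in build GRCm38.p6. The Crabp1 stretch is chr9:54764498-54764747 on the plus strand, and the Rarb stretch is chr14:16575477-16575726 on the minus strand. Capitals mark matches to the receptor-binding hexamer AGGTCA or its variants, which read AGTTCA in one form, GGGTCA in another and GGTTCA in a last, on either strand, or to a direct repeat of any of them with a spacer of 1, 2 or 5 bases, spacer included.
Crabp1: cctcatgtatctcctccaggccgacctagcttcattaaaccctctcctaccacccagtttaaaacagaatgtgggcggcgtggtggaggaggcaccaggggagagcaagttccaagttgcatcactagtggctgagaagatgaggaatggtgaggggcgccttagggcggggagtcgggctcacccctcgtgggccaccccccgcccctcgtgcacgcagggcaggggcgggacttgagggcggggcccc
Rarb: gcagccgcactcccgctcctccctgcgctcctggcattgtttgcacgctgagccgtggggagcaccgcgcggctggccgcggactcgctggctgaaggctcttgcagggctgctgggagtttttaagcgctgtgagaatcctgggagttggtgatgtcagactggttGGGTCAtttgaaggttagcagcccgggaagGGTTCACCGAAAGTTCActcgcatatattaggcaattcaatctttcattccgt

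The Rarb stretch holds the direct repeat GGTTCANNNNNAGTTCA, with a spacer of 5 bases, at positions -53 to -37 from the transcription start, and a lone GGGTCA at -83 to -78. The Crabp1 stretch holds none of these letters, and its GC content is 63.6%, against a median of 52.4% over all 32851 windows of this length. At least 1 of the 4 hexamers occurs in 38.6% of those windows, so a lone hexamer is common. A direct repeat with a spacer of 5 occurs in 29 of them (0.0883%), and the share is 0.1644% for a spacer of 1 and 0.1735% for a spacer of 2. RefSeq windows were held for 7 of the 9 genes, some with several starts. Besides Rarb, 1 hexamer was found before a start of Aldh1a1 and 4 before a start of Rara, none of them in such a repeat, and no other of these 7 genes matched. A match describes the letters only, and no match says only that they are not in this window.

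Values are log2 intensities from RMA, which corrects the background, normalizes the arrays and summarises each probe set, and 1 unit is a 2-fold difference. A gene was tested where 3 or more arrays placed it above their own 40th percentile, as 14195 genes were. That percentile lay between 6.18 and 6.396. Of the 9 genes, 6 were tested, and each of these was above it on all 12 arrays. Crabp2, Rara and Rarb were not tested: they passed it on 2, 1 and 2 arrays. A gene was called at an adjusted p under 0.05 in limma, over all genes tested. No p was adjusted over the 9 genes alone.

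The labels were checked against read-outs of the alleles. Ptch1, a sonic hedgehog target, lay at 9.38 to 9.74 in GBS and 8.46 to 8.62 in GS, against 6.96 to 7.28 in GB and 7.08 to 7.17 in Control. Axin2, a WNT target, lay at 8.66 to 9.04 in GBS and 7.58 to 7.95 in GB, against 7.01 to 7.16 in GS and 6.99 to 7.18 in Control. The arrays also differed in background. The median of 1190 odorant and pheromone receptor genes, little expressed in brain, was 4.84 to 4.92 in GBS, 4.88 to 5.23 in GS, 5.02 to 5.35 in GB and 5.12 to 5.23 in Control. Xist was high in GS replicates 2 and 3 and in GB replicates 2 and 3 (8.66 to 10.83) and at most 5.02 on the other arrays, so by Xist GBS matched Control and GS matched GB, while the other pairs differed in sex. With genotype means removed, GB replicate 2, GS replicate 3 and Control replicate 3 correlated with one another (0.739 to 0.833). The cause of this was not tested, and these arrays were kept in the main fit. No batch is named in the labels.

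Crabp1 was the one gene of the 6 tested that limma called in any comparison. It fell in the tumors against each of the other genotypes. In GBS its values were 7.94, 7.44 and 7.98, in GS 8.55, 8.67 and 8.26, in GB 8.59, 8.58 and 8.77, and in Control 8.94, 8.97 and 8.63. Every GBS array lay below every other array, while the ranges of GS and GB overlapped, as did those of GB and Control and those of GS and Control. The means were 7.79 ± 0.298 in GBS, 8.495 ± 0.207 in GS, 8.65 ± 0.108 in GB and 8.85 ± 0.188 in Control (SD, n = 3 each).

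Crabp1 was lower in GBS than in Control by log2 -1.06 ± 0.162 (SE; 95% interval -1.42 to -0.70; adjusted p = 0.00244 in limma), which is 0.480 of the Control level. Against GB the difference was -0.86 ± 0.162 (adjusted p = 0.0104), and against GS it was -0.71 ± 0.162 (adjusted p = 0.0316). In GBS against Control the call held under all 24 other settings (log2 -1.24 to -0.89, adjusted p 2.8e-05 to 0.0153). Against GB the call ended with sex as a term (adjusted p = 0.0846) or with only those 2 genotypes in the fit (adjusted p = 0.0861). Against GS the call ended in 9 of 24 settings, among them without GBS replicate 2, GS replicate 1, GS replicate 2 or Control replicate 1. The adjusted p reached 0.146 at most, with sex as a term. In that comparison the estimate was -0.54 without GBS replicate 2, the array with the lowest Crabp1.

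**Figure D1:**
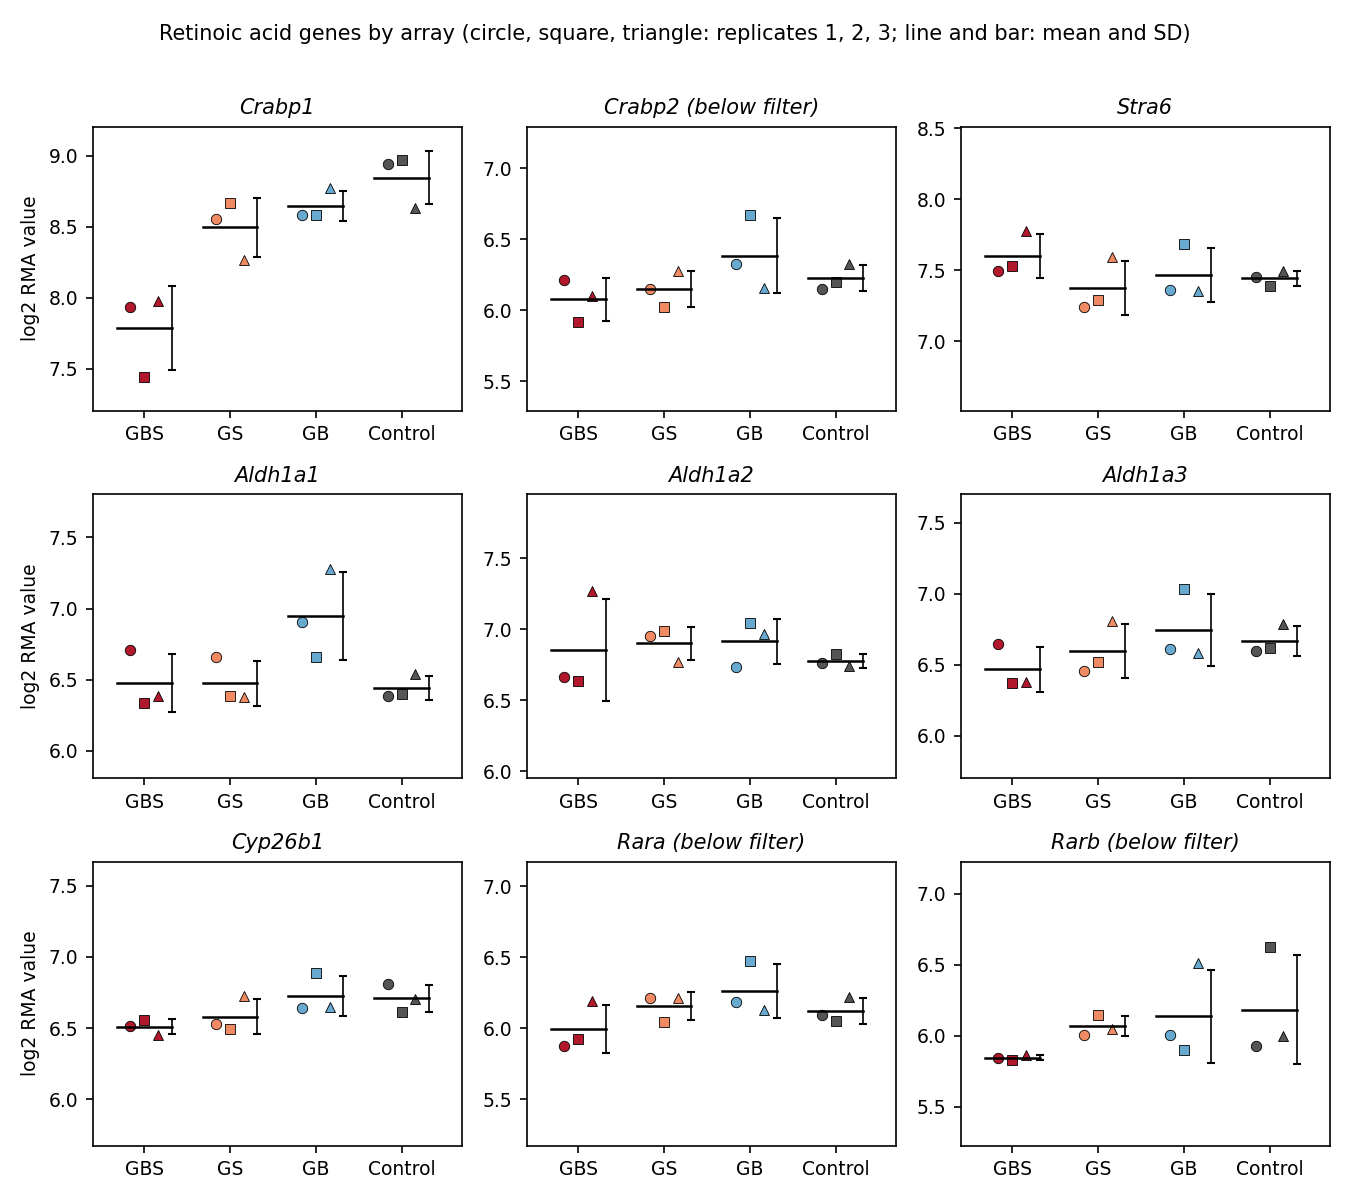
Log2 RMA value of each of the 9 genes on each of the 12 arrays, in panels that all span 2 log2 units. Points are arrays, horizontal lines group means and vertical bars SDs (n = 3). In the Crabp1 panel the 3 GBS arrays (7.44 to 7.98) sit below the other 9 (8.26 to 8.97). In the Crabp2, Aldh1a2, Aldh1a3 and Rara panels all genotypes overlap.

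With 1 allele alone, Crabp1 passed in neither comparison. GS minus Control was -0.35 (95% interval -0.71 to 0.01, adjusted p = 0.645) and GB minus Control was -0.20 (-0.56 to 0.16, adjusted p = 1.0). With array weights GS minus Control was called (-0.25, adjusted p = 0.0203). Those weights were extreme, at 10.9 for GS replicate 2 and 0.211 for GS replicate 3. GS minus GB was -0.15 (adjusted p = 0.583). The interaction, the GBS to GS difference less the GB to Control difference, which asks whether both alleles together differ from the sum of each alone, was -0.51 ± 0.229 (unadjusted p = 0.0487, adjusted p = 0.609, and 0.0486 with array weights). These comparisons share the Control, GS or GB arrays with those above.

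As a count, limma called 1 of the 6 tested genes in GBS against Control, where 15.3% of all genes tested were called and 4.35% were called lower, so a count of 1 is near the background. The count was also 1 of 6 against GS, with 5.07% of all genes called (1.51% lower), and 1 of 6 against GB, with 12.7% (3.12% lower). GBS arrays lay apart from those of the other genotype for 3 of the 6 genes against Control, 1 against GS and 2 against GB, and for 64.6%, 28.9% and 47.9% of all genes. No gene of the 6 was called by limma in GS against Control (0.0211% of all genes), in GB against Control (0%), in GS against GB (0.0141%) or in the interaction (0.331%). At an unadjusted p under 0.05 there were 0 of 6 in GS against Control, where 5.91% of all genes were, 1 in GB against Control (1.1%), 1 in GS against GB (7.85%) and 2 in the interaction (8.16%). With array weights the adjusted counts in these 4 were 2, 1, 1 and 3. Over all genes tested in a setting, the largest count in any of the alternative settings was 8287, 68, 2092 and 1158, in the same order. The number of genes tested differs between some settings, and these maxima are not tied to the weighted fit. The weighted counts are given as a description only. The median log2 change of the 6 genes in GBS against Control was -0.08, and that of all genes tested was -0.10.

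The genes with the profile most like that of Crabp1 were Spag6l, Slco3a1 and Agap2. Likeness was the mean absolute difference over the 12 arrays after each gene was centred on its mean and divided by its SD. It was 0.171 SD for Spag6l, 0.175 SD for Slco3a1 and 0.203 SD for Agap2. Slco3a1, a transporter of organic anions, averaged 7.56 ± 0.185 in GBS and 8.18 ± 0.0997 in Control (SD, n = 3 each). Spag6l, related to a protein of the cilium's axoneme, averaged 6.17 ± 0.0664 in GBS and 6.535 ± 0.058 in Control (SD, n = 3 each). Its values on GBS replicates 1 and 2 (6.20 and 6.09) lay below the filter levels of those arrays (6.236 and 6.18). Agap2, a GTPase-regulating protein of neurons, averaged 7.24 ± 0.155 in GBS and 7.68 ± 0.0563 in Control (SD, n = 3 each). They were picked for this likeness, so their differences are given as a description.

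Crabp2, the partner of Crabp1 in binding retinoic acid, was dim and was not tested. Its values were 6.21, 5.91 and 6.10 in GBS, 6.15, 6.02 and 6.28 in GS, 6.33, 6.67 and 6.15 in GB, and 6.15, 6.20 and 6.33 in Control. The 4 genotypes overlapped, and GB replicate 2, the array with the highest receptor-gene level (5.35), was the highest. GBS minus Control was -0.15 (95% interval -0.45 to 0.15) when fitted without the filter. All 3 Control arrays lay below the filter level, so this probe set had little room to show a fall.

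Stra6, the retinol import receptor, did not pass in any comparison. It read 7.49, 7.53 and 7.78 in GBS, 7.24, 7.29 and 7.59 in GS, 7.36, 7.69 and 7.35 in GB, and 7.45, 7.39 and 7.49 in Control. The lowest GBS array (7.4928) and the highest Control array (7.4925) were almost level. GBS minus Control was 0.16 (95% interval -0.13 to 0.44, adjusted p = 0.339), GBS minus GS 0.22 (adjusted p = 0.402) and GBS minus GB 0.13 (adjusted p = 0.405). With the receptor-gene level as a covariate these became 0.45, 0.37 and 0.40 (adjusted p = 0.021, 0.0155 and 0.0432). That level does not overlap between GBS and Control or between GBS and GB, so both of those adjusted values are extrapolated from differences within genotypes.

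The retinoic acid-forming enzymes showed no called change. Aldh1a1 was highest in GB, at 6.91, 6.66 and 7.28, against 6.39, 6.40 and 6.54 in Control, without overlap, as held for 4.1% of all genes. It read 6.71, 6.33 and 6.39 in GBS and 6.66, 6.39 and 6.37 in GS, which overlapped Control. GB minus Control was 0.51 ± 0.159 (95% interval 0.16 to 0.86; unadjusted p = 0.00879, adjusted p = 1.0), where limma called 0 of 14195 genes. GBS minus GB was -0.47 (adjusted p = 0.0669, and 0.0278 without GB replicate 2), GS minus GB was -0.48 (adjusted p = 0.486), and the interaction was -0.50 (adjusted p = 0.606). Both GBS minus Control (0.03) and GS minus Control (0.03) were near 0, with 95% intervals of -0.32 to 0.38 each. GB replicates 2 and 3 had high Xist and no Control array did, so sex moves with this difference. With sex as a term GB minus Control was 0.58 (adjusted p = 1.0).

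Aldh1a2, the enzyme of the meninges, read 6.66, 6.64 and 7.27 in GBS, 6.95, 6.99 and 6.77 in GS, 6.73, 7.04 and 6.97 in GB, and 6.76, 6.83 and 6.74 in Control. The GBS arrays spanned both ends of the 12, with replicate 3 the highest and replicate 2 the lowest. GBS minus Control was 0.08 (95% interval -0.27 to 0.43, adjusted p = 0.696), and its sign turned without GBS replicate 3 (-0.13). Aldh1a3, the enzyme of the lateral ganglionic eminence, read 6.65, 6.37 and 6.38 in GBS, 6.45, 6.52 and 6.81 in GS, 6.61, 7.03 and 6.58 in GB, and 6.60, 6.62 and 6.79 in Control. The genotypes overlapped, with GBS lowest on average. GBS minus Control was -0.20 (-0.52 to 0.12, adjusted p = 0.279) and GBS minus GB was -0.28 (-0.59 to 0.04, adjusted p = 0.159). With the receptor-gene level as a covariate both changed sign (0.17 and 0.06).

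Cyp26b1, which degrades retinoic acid, varied least of the 9 genes, by 0.437 over all arrays. It read 6.51, 6.56 and 6.45 in GBS, 6.53, 6.49 and 6.72 in GS, 6.64, 6.89 and 6.65 in GB, and 6.81, 6.62 and 6.71 in Control. The GBS arrays lay below all GB and all Control arrays, which is also true in 1 direction or the other of 47.9% and 64.6% of all genes tested. Neither GBS minus Control (-0.20, 95% interval -0.42 to 0.02, adjusted p = 0.158) nor GBS minus GB (-0.22, -0.44 to 0.01, adjusted p = 0.127) passed the test.

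The receptor genes were dim. Rarb, itself a classical target of retinoic acid through the repeat printed above, read 5.84, 5.82 and 5.86 in GBS, 6.01, 6.14 and 6.04 in GS, 6.00, 5.90 and 6.51 in GB, and 5.93, 6.63 and 6.00 in Control. The 3 GBS arrays were the lowest of the 12, but only 2 arrays, 1 of GB and 1 of Control, exceeded the filter. Without the filter GBS minus Control was -0.34 (95% interval -0.75 to 0.07, adjusted p = 0.191). The receptor-gene background was lower in GBS than in Control as well, and its part in this difference was not tested. Rara read 5.87, 5.93 and 6.19 in GBS, 6.21, 6.04 and 6.22 in GS, 6.18, 6.48 and 6.13 in GB, and 6.09, 6.05 and 6.22 in Control, with overlap throughout. Its GBS minus Control was -0.13 (-0.39 to 0.14, adjusted p = 0.405).

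**Figure D2:**
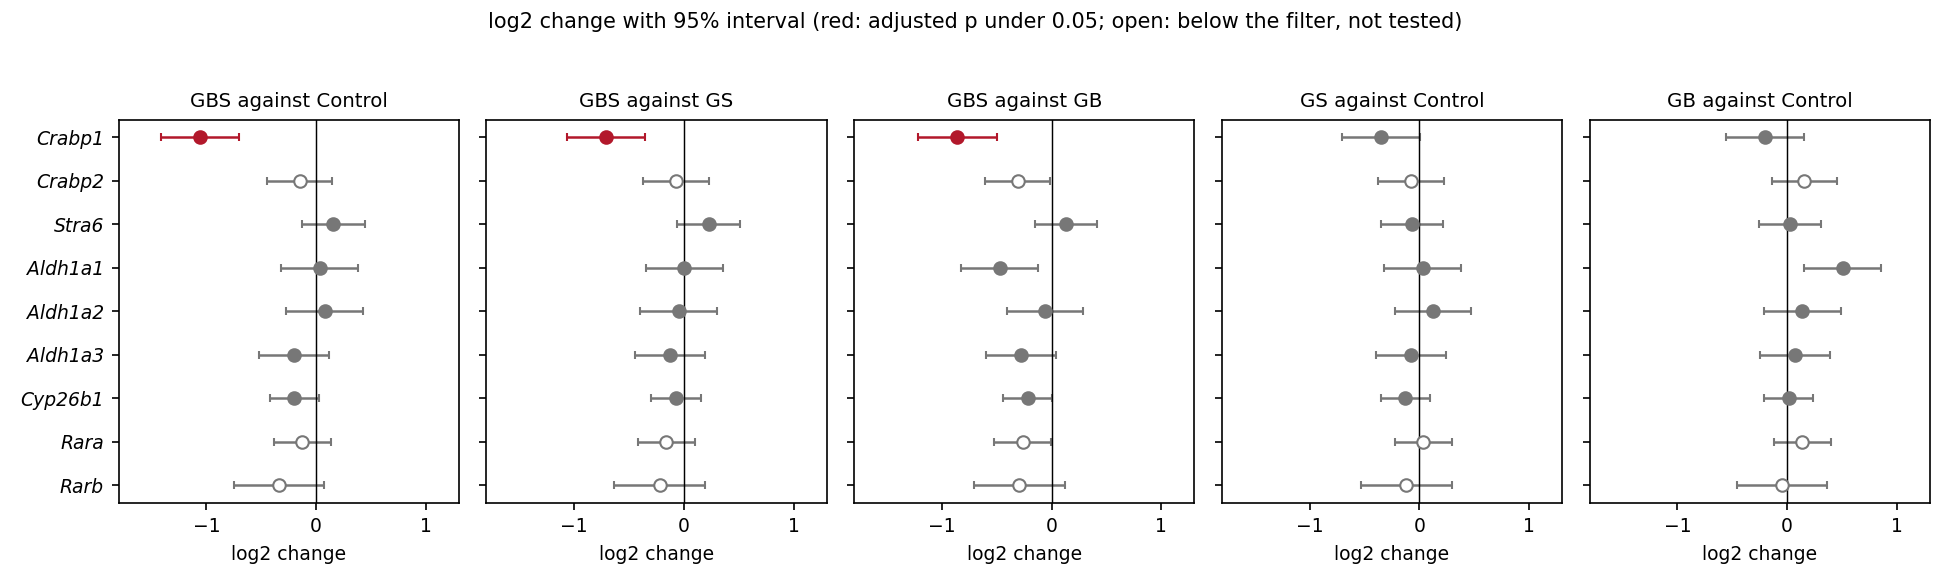
Log2 change of each of the 9 genes in 5 comparisons, with 95% intervals from limma. Red marks an adjusted p under 0.05 and open symbols the 3 genes below the filter. Only Crabp1 is red, in the 3 comparisons of GBS with another genotype (-1.06, -0.71 and -0.86).

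Across arrays some of the 9 genes had their lowest or highest value on the same array. GBS replicate 2 was the lowest array for 6 of them (Crabp1, Crabp2, Aldh1a1, Aldh1a2, Aldh1a3 and Rarb), and 8 of the 9 were lowest on some GBS array. GB replicate 2 was the highest array for 4 (Crabp2, Aldh1a3, Rara and Cyp26b1). Those arrays also had the lowest (4.84) and the highest (5.35) receptor-gene level. The part of that level in these extremes was not tested. The share of all genes with such extremes on these arrays was not computed. The counts are therefore a description only and do not set the 9 genes apart from other genes.

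**Figure D3:**
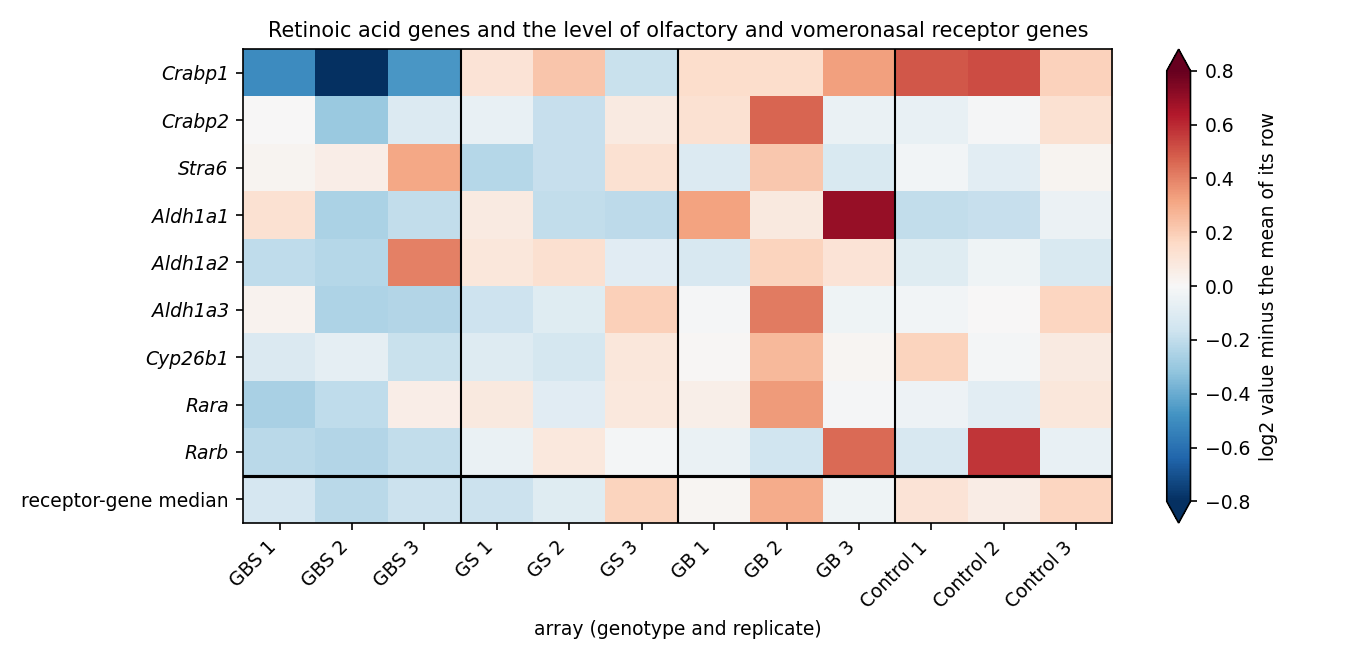
Log2 value of the 9 genes on each array, centred on the mean of each row, with the median of the 1190 receptor genes as a last row. Crabp1 is low on the 3 GBS arrays, and GB replicate 2 is high for Crabp2, Aldh1a3, Rara, Cyp26b1 and the receptor genes.

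Of 51 other genes of the pathway, 32 were tested, 13 were below the filter and 6 had no probe set of their own. In GBS against Control 5 rose and 1 fell, which is 18.8% of those tested, against 15.3% of all genes. Their median log2 change was -0.10, the same as that of all genes tested to 2 decimals. In GBS against GS 2 rose and none fell (6.25%, against 5.07% of all genes), and in GBS against GB 4 rose and none fell (12.5%, against 12.7%).

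Of these calls in GBS against Control, 4 were among the 8 tested of 15 retinoid oxidoreductases, and none of that list fell, where 11% of all genes tested rose. Against GS 2 of the 8 rose, where 3.56% of all genes did, and against GB 3 rose, where 9.6% did. The list was chosen with earlier results of these data known, so these counts are a description and not a test. The 4 in GBS against Control were Rdh10, Cyp1b1, Adh5 and Dhrs4, and the median change of the 8 was 0.32. Rdh10, which oxidises retinol to retinaldehyde, read 8.40, 9.39 and 8.43 in GBS, 7.16, 7.38 and 6.68 in GS, 7.43, 7.36 and 7.51 in GB, and 7.13, 7.16 and 7.29 in Control. Every GBS array exceeded every other array. Rdh10 rose by log2 1.54 ± 0.246 (SE) against Control, a 2.91-fold difference (adjusted p = 0.00299), and by 1.66 against GS (adjusted p = 0.0035), and both calls held under all 24 other settings. Against GB it rose by 1.31 (adjusted p = 0.0102), a call that ended with only those 2 genotypes in the fit (adjusted p = 0.0883), with sex as a term (0.0887) or with the receptor-gene covariate (0.0601).

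Cyp1b1, a cytochrome P450 that can oxidise retinol, read 10.56, 10.94 and 10.56 in GBS, 7.09, 6.85 and 6.91 in GS, 8.09, 7.32 and 8.58 in GB, and 6.47, 6.88 and 6.65 in Control. All GB arrays exceeded all Control arrays, by 1.33 on average (adjusted p = 0.661), and this passed without GB replicate 2 (1.67, adjusted p = 0.00352). GBS minus GB was 2.69 (adjusted p = 0.000317) and GBS minus GS was 3.74 (adjusted p = 2.76e-05). The interaction was 2.41 ± 0.365 (SE; adjusted p = 0.0261), the only called one among the 32 pathway genes. It passed in only 3 of the 12 fits that left out 1 array, namely GBS replicate 1, GB replicate 2 or GB replicate 3, and the adjusted p was at most 0.0996 in the others.

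Adh5, a widely expressed alcohol dehydrogenase, read 8.43, 8.69 and 8.70 in GBS, against 7.81, 7.81 and 7.46 in Control, and rose by 0.91 (adjusted p = 0.0239). That call ended in 8 of 24 settings, 5 of them without GBS replicate 2, GBS replicate 3 or any 1 of the Control arrays (adjusted p up to 0.102), and the estimate was 0.31 with the receptor-gene covariate (adjusted p = 0.227). Dhrs4, a retinal reductase, read 7.51, 7.71 and 7.36 in GBS, against 7.09, 7.08 and 7.18 in Control, and rose by 0.41 (adjusted p = 0.0176). Its call ended in 3 settings, each leaving out an array: GBS replicate 2 (adjusted p = 0.0701), the first Control replicate (0.0654) or the second (0.0614).

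**Figure D4:**
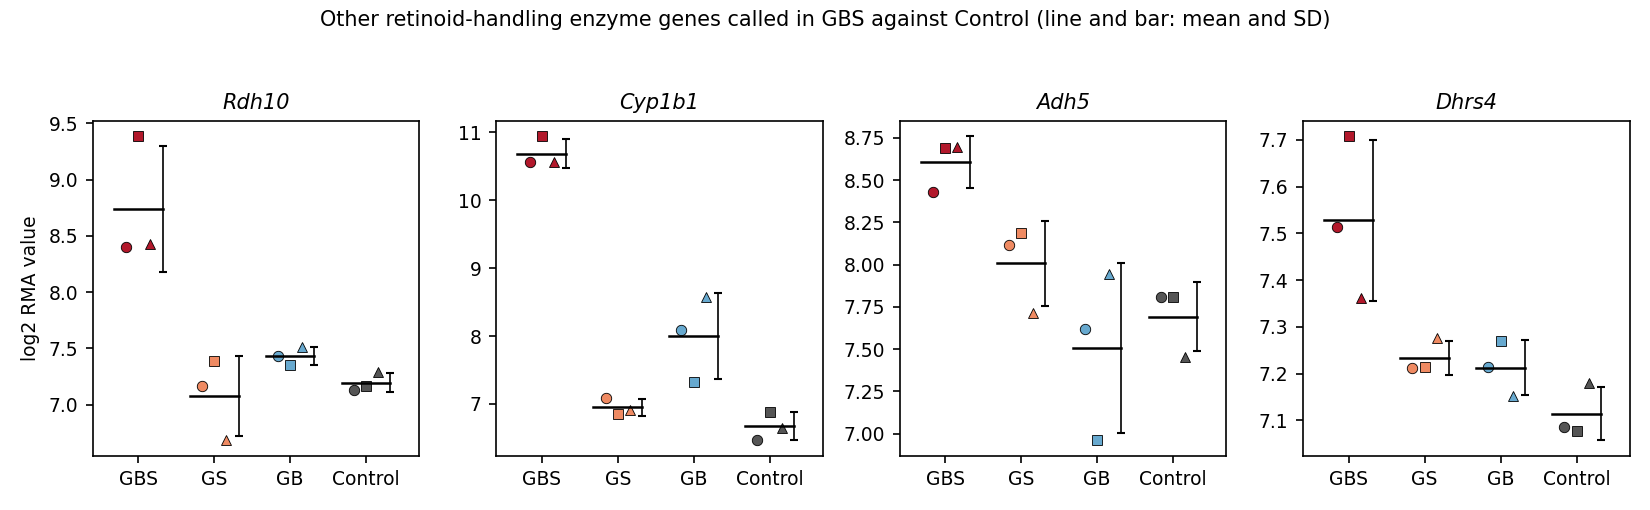
Log2 value of Rdh10, Cyp1b1, Adh5 and Dhrs4 on each of the 12 arrays, by genotype. The 3 GBS arrays of each gene lie above its other arrays, from 8.40 for Rdh10 and 10.56 for Cyp1b1.

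Among the other groups, none of 2 tested genes for uptake, carriage and storage, of 2 for binding and clearance, or of 3 receptors (Rarg, Rxra and Rxrb) was called by limma in GBS against Control. At an unadjusted p under 0.05 there were 1, 1 and 0, where 38.8% of all genes tested were. Of 7 tested coregulators 1 rose: Med1, a Mediator subunit, by 0.84 (adjusted p = 0.0274, lost in 8 of 24 settings, 5 of them without GBS replicate 2, GBS replicate 3 or any 1 Control array). Of 10 tested genes that retinoic acid induces in other tissues 1 fell: Cdx1, a homeobox gene, by 0.42 on the log2 scale (adjusted p = 0.0451, lost in 13 of 24 settings, 9 of them without 1 array of any genotype). The median of those 10 was -0.20. Of all genes tested in GBS against Control, limma called 15.3% at the adjusted threshold, 11% higher and 4.35% lower. A count of 1 of 7 or 1 of 10 is near that background.

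In whole tissue, fewer cells of a type and less RNA per cell cannot be told apart. In GBS against Control, limma called 4.35% of all genes tested lower and 11% higher. Beside the fall of Crabp1, 6 of 14 tested genes of the subpallium and striatum fell in that comparison and none rose. Among them were Drd2 (-0.68, adjusted p = 0.0106) and Dlx6 (-0.84, adjusted p = 0.0222). The Drd2 call ended in 1 of 24 settings (adjusted p = 0.0525). The Dlx6 call ended in 5, among them without GBS replicate 2, GBS replicate 3, Control replicate 1 or Control replicate 2 (at most 0.11). The mean level of that list was 6.48 to 6.96 in GBS, 7.27 to 7.53 in GS, 7.14 to 7.45 in GB and 7.26 to 7.57 in Control. Of 7 tested genes of the pallium 2 fell, Tbr1 (-1.09, adjusted p = 0.0429) and Neurod6, and 3 rose. Those that rose were Emx2 (1.88, adjusted p = 2.94e-05), Pax6 (1.48, adjusted p = 0.000543) and Neurog2 (0.92, adjusted p = 0.00321). The pallium calls were not followed over the other settings. Of 9 genes of postmitotic neurons 2 fell, Gap43 (-1.48, adjusted p = 0.0282) and Mapt (-0.56, adjusted p = 0.0304). Those calls ended in 4 and 6 of 24 settings, among them for both genes without GBS replicate 2 or any 1 of the Control arrays (adjusted p at most 0.109 for Gap43 and 0.136 for Mapt). The mean of the 9 genes was 8.48 to 9.27 in GBS, 9.1 to 9.92 in GS, 8.12 to 9.59 in GB and 9.24 to 9.61 in Control. All 7 tested proliferation genes rose, with a median change of 2.37 and a list mean of 8.88 to 9.81 in GBS, 7.61 to 8.01 in GS, 6.55 to 7.32 in GB and 6.89 to 7.18 in Control. Bub1, 1 of the 7, lay below the filter level on every GB array (5.27 to 6.06) and every Control array (5.47 to 5.76). Kif11 did so on GB replicate 2 and on Control replicates 1 and 3. The part of these shifts in the Crabp1 difference was not tested.

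Beside the rise of Rdh10 and the level of Aldh1a2, markers of the meninges and choroid plexus were read, since both tissues handle retinoids. Of 11 meningeal genes 7 were tested and 1 was called higher in GBS against Control, where 11% of all genes tested were. This was Dcn (3.79, adjusted p = 0.000354). Foxc1, Foxd1, Tbx18 and Lum lay below the filter. Another 5 of the 7 had lower means in GBS than in Control without passing, and the median change was -0.23. Of these, 4 (Col1a1, Col1a2, Col3a1 and Aebp1) had no overlap of arrays, as held in either direction for 64.6% of all genes. The mean of the 7 was 7.45 to 7.60 in GBS, 7.05 to 7.29 in GS, 7.41 to 7.53 in GB and 7.07 to 7.295 in Control. Of 10 choroid plexus genes 7 were tested and 2 rose, against 11% of all genes tested: Sostdc1 (2.14, adjusted p = 0.000189) and Clic6. Clic6 read 7.93 to 9.08 in GBS, against 5.84 to 6.15 in Control, below the filter level on every Control and GS array, so its difference is not given as a fold. Another 4 of the 7, among them Aqp1, Folr1 and Ttr, had lower means in GBS than in Control without passing, and the median change was -0.16. The mean of the 7 was 6.94 to 7.44 in GBS, 6.54 to 7.11 in GS, 6.60 to 7.38 in GB and 6.52 to 7.36 in Control. Their part in the Rdh10 difference was not tested.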

How the data were processed

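RNA of 12 forebrains was hybridised to Affymetrix arrays, 3 biological replicates per genotype. The limma p-values set each difference of means against the spread within genotypes, pooled over all 4. The number of arrays limits the precision. The deposited values are log2 intensities that the authors made with RMA (Affymetrix Expression Console); this is stated per the submitters' processing notes, which name no version or genome build. Of 35556 probe sets 21789 carried 1 gene symbol, and the 1621 with several were left out. Where a gene had several probe sets, the one with the highest mean was used. Genes above the 40th percentile of the array on at least 3 arrays were fitted with limma 3.58.1 in R 4.3.3, with 1 mean per genotype over all 12 arrays and Benjamini-Hochberg adjustment over 14195 genes. The fit was tested on simulated data. All 9 genes are named whatever their values. Of other lists, values are given for up to 4 called genes each by lowest adjusted p. Some other genes are named without values. The members and lists were chosen with earlier results of these data known. The Rarb sequence was chosen for printing after its match was found. Alternatives covered filters, probe set choice, normalization, covariates, array weights and left-out arrays.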

Additional observations from a re-analysis of the deposited data

Results flagged for a closer look

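Cyp1b1 was marked because the effect of the Ctnnb1 allele differed with and without SmoM2 by the test of the difference itself: the GBS to GS difference less the GB to Control difference was 2.41 on the log2 scale (adjusted p = 0.0261 in limma). GBS minus GS was 3.74 and GB minus Control was 1.33. The call ended with a replicate block (adjusted p = 0.0949), with sex as a term (2.17, adjusted p = 0.739) and in 9 of the 12 fits that left out 1 array (2.07 to 2.70, adjusted p up to 0.0996).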

How the results depend on the processing

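Crabp1 in GBS against Control stayed below 0 and past the threshold in all 24 alternatives. The number of the 6 tested genes called in that comparison was 2 with array weights and 2 with the receptor-gene covariate, and 1 in every fit that left out 1 array. With array weights the counts were 2 in GS against Control, 1 in GB against Control, 2 in GBS against GS, 3 in GBS against GB, 1 in GS against GB and 3 in the interaction. In GBS against GS the count was 1. It was 0 after centring on array medians, with trend and robust fitting or with only the genotypes compared. The replicate block and sex as a term also gave 0. It was 2 without 3 arrays that deviated together (GB replicate 2, GS replicate 3 and Control replicate 3). It was 2 with the receptor-gene covariate, and 0 to 1 with 1 array left out. In GBS against GB the count was also 1. It was 0 with only the genotypes compared and with sex as a term. It was 2 without those 3 arrays, 3 with the receptor-gene covariate, and 1 to 2 with 1 array left out. The share of all genes called in each of these settings is not given here, so the counts by setting are a description only. Same-numbered replicates did not pair (7 of 18 correlations over 0.1, -0.818 to 0.739), so the block serves only as an alternative. With the replicate block these calls ended: Crabp1 in GBS against GS (adjusted p = 0.0799), the Cyp1b1 interaction (0.0949), Med1 in GBS against GB (0.0944), and in GBS against Control Adh5 (0.0583), Med1 (0.0609), Cdx1 (0.0919), Agap2 (0.0555), Mapt (0.0577) and Dlx6 (0.0527).

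Signs turned in these cases, none of them called: Aldh1a1 in GBS against Control (-0.20 with the receptor-gene covariate, -0.0823 to 0.11 with 1 array left out) and in GS against Control (-0.0004 with array weights, -0.0881 with the covariate, -0.0611 to 0.0809), Aldh1a2 in GBS against Control (-0.13 to 0.19), Aldh1a3 with the covariate (0.17 against Control, 0.0632 against GB), and Rdh10 in GS against Control (0.19 with array weights, 0.13 without 3 arrays, -0.27 to 0.0796). The cause was not tested. Over all genes, calls in GBS against Control numbered 2173 (709 to 7737 over the alternatives), in GBS against GS 720 (212 to 3655), in GBS against GB 1806 (77 to 3441), in GS against Control 3 (2 to 8287), in GB against Control 0 (0 to 68), in GS against GB 2 (0 to 2092) and in the interaction 47 (0 to 1158). Array weights were extreme, 10.9 for GS replicate 2 and 0.0794 for GB replicate 2. Signal over background limits Crabp2, Rara and Rarb.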

Other observations

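Ttr, which carries thyroxine and the retinol-binding protein and is made by the choroid plexus, was singled out after its values were seen. It read 5.63, 5.93 and 5.72 in GBS, 9.92, 9.49 and 6.08 in GS, 5.79, 6.39 and 10.21 in GB, and 6.03, 5.90 and 9.96 in Control. No GBS array was high, while 2 GS arrays, 1 GB array and 1 Control array were. GBS minus Control was -1.53 (adjusted p = 0.379 in limma).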
